A study of Mus musculus with 9 samples.

Results

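Fbxo48, Tbr1, Igdcc3, Btn1a1 and Cdh1 are 5 of the 55401 genes counted in mouse testis poly(A) RNA, and they are described here because they had 0 counts in every library recovered with control IgG and high counts in every library recovered with an antibody to N4-acetylcytidine (ac4C). They were chosen by these IgG and acRIP counts, which are therefore given as a description, without a test. The study compared 3 groups of 3 libraries, namely input RNA that met no antibody, RNA pulled down with a rabbit IgG isotype control, and RNA pulled down with the anti-ac4C antibody (acRIP). All 9 libraries came from testes of wild-type male mice of the ICR stock, whose age at collection is not given in the sources used here. An ac4C-containing β-globin probe was added to the poly(A) RNA, and all libraries were made by Smart-seq2, a full-length cDNA method that amplifies cDNA before the library is built. The precipitated RNA of both antibody groups was too dilute to be quantified and entered by volume, while input RNA entered at a set concentration. The labels do not say whether the 3 libraries of a group came from separate mice or separate precipitations, so p-values measure only the spread between these libraries, which may be technical.

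ac4C is an acetylated cytidine, installed in RNA by the acetyltransferase NAT10, and it is long known from ribosomal and transfer RNA. In acRIP-seq, RNA held by an anti-ac4C antibody is sequenced and compared with input, which gives the level of each transcript in the tissue, and with IgG, which gives what the beads and a non-specific antibody hold. A transcript counted in acRIP and absent from IgG is thus the plainest form of the pattern that the assay looks for. The 5 genes have little in common in their known roles. Fbxo48 encodes an F-box protein, a class that brings substrates to SCF ubiquitin ligases. Tbr1 is a T-box transcription factor known from glutamatergic neurons of the cerebral cortex. Igdcc3 is an immunoglobulin superfamily membrane protein related to the netrin receptor DCC, Btn1a1 is butyrophilin, a main protein of the milk fat globule membrane, and Cdh1 is E-cadherin, the adhesion protein of epithelial junctions that in the testis is also known from undifferentiated spermatogonia.

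The study derived a sequence motif preferred by ac4C in testis transcripts. Its fixed letters, with N at each variable position, read CNCAGNNC. The study limits these positions, so that the N next to the first C and the last N may be any base but G and the N after CAG must be C or G. These letters follow the main text of the study. Its figure caption prints a further C in front, a form that was not searched here. To show what such a stretch looks like in each of the 5 transcripts, 1 match per gene that keeps to these limits is printed with 11 bases on each side, read 5′ to 3′ on the transcript strand from mm10, with the match in capitals. For 4 genes it is the first match in the coding sequence that lies within an exon, and for Fbxo48 it is the only match in the transcript, in the 5′ UTR.
Fbxo48, chr11:16951500-16951529, plus strand, exon 1, 5′ UTR: ctgcctgtcctCACAGCACagggatgtggt
Tbr1, chr2:61805280-61805309, plus strand, exon 1, coding: gttctcctccaCCCAGCCCgggttggtgcc
Igdcc3, chr9:65177408-65177437, plus strand, exon 3, coding: ccacgtacaccCCCAGGCCgtcacgggtga
Btn1a1, chr13:23459327-23459356, minus strand, exon 8, coding: ctggatccagaCACAGCCCacccccacctc
Cdh1, chr8:106653546-106653575, plus strand, exon 4, coding: cccagcgtgtaCCCAGGTCtcagaagacag
A match is a description of the letters and not a mapped ac4C site, since the count table holds 1 value per gene and library and no position within it.

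The libraries held 14647542 to 31340090 counts, with input the deepest at 22023925 to 31340090, IgG at 14647542 to 18786779 and acRIP at 16025779 to 18639134. A count of 0 in an IgG library allows up to 3 counts, which is 0.160 to 0.205 CPM, a unit in which each count is scaled to a common library total. Such limits cover counting error only, because reads copied by amplification are not independent molecules. They also leave out the choice of genes by their IgG zeros, so folds over these limits are not lower bounds for the chosen genes. Between 22206 and 22402 genes had a count in an acRIP library, against 26204 to 26874 in an IgG library and 28552 to 29642 in an input library. Spermatid markers summed to 13645 to 15485 CPM in input, 15797 to 16273 in IgG and 15401 to 16528 in acRIP, as the testis label has it.

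Fbxo48 (ENSMUSG00000044966.4, chr11:16951375-16954772, plus strand) had 10, 13 and 2 counts in the input libraries, 0, 0 and 0 in IgG, and 138, 140 and 152 in acRIP. Every acRIP library stood above every input library, in CPM a pattern of 20.8% of the 35699 genes with a count. In CPM the mean was 0.333 ± 0.250 (SD, n = 3) in input and 8.39 ± 0.798 (SD, n = 3) in acRIP. The acRIP mean was 47.9-fold the limit of 3 counts per IgG library, or 23.9-fold a limit of 6 counts. The limit of 6 counts applies if each pair of mates gave 2 counts. As the IgG zeros chose the gene, neither value is a lower bound of the fold over IgG. The fitted log2 fold change over input was 4.71 (SE 0.40). Fbxo48 had the highest acRIP level of the 5 genes per length.

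Tbr1 (ENSMUSG00000035033.15, chr2:61802930-61814114, plus strand) had 6, 32 and 4 counts in input, 0 in each IgG library, and 128, 150 and 140 in acRIP. Input replicate 2 stood apart with 32 counts, although it also remained below all acRIP libraries. The mean was 0.608 ± 0.732 CPM (SD, n = 3) in input, a spread larger than the mean itself, and 8.13 ± 0.192 CPM (SD, n = 3) in acRIP. The acRIP mean of Tbr1 was 46.4-fold the IgG limit of 3 counts (23.2-fold against 6 counts). Its fitted log2 fold change over input was 3.88 (SE 0.45), or 5.47 without input replicate 2. The size of the change over input therefore depended on 1 library.

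Igdcc3 (ENSMUSG00000032394.6, chr9:65141189-65185872, plus strand) had 3, 0 and 2 counts in input, 0 in each IgG library, and 125, 148 and 130 in acRIP. All input values lay at or below the limit of 3 counts, so the transcript was at the edge of detection before the pull-down. In acRIP the mean was 7.83 ± 0.0986 CPM (SD, n = 3), which was 44.7-fold the IgG limit of 3 counts (22.3-fold against 6 counts). The summed counts were 403 in acRIP and 5 in input, a depth-corrected ratio of 118 with a 95% exact counting interval of 50.3 to 367. This was the largest ratio over input among the 5 genes, but its interval overlapped that of Btn1a1. Both intervals cover counting error only and leave out the spread between libraries. They also leave out the choice of both genes by their high acRIP counts. They would be wider if each pair of mates gave 2 counts.

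Btn1a1 (ENSMUSG00000000706.16, chr13:23456992-23465901, minus strand) had 0, 0 and 6 counts in input, 0 in each IgG library, and 128, 122 and 126 in acRIP. A single input library held all of its input counts. The mean in acRIP was 7.35 ± 0.735 CPM (SD, n = 3), 41.9-fold the IgG limit of 3 counts (21.0-fold against 6 counts). The sums of 376 counts in acRIP and 6 in input gave a ratio of 92.0 with a 95% exact counting interval of 41.9 to 252. Without input replicate 3 no input count was left, and the fold over input would be a lower bound only.

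Cdh1 (ENSMUSG00000000303.12, chr8:106603351-106670246, plus strand) had 34, 14 and 12 counts in input, 0 in each IgG library, and 90, 152 and 120 in acRIP. Its input mean was 0.754 ± 0.291 CPM (SD, n = 3), and it was the only one of the 5 genes with more than 10 counts in every input library. In acRIP it had the widest spread of the 5, at 6.97 ± 1.28 CPM (SD, n = 3). The acRIP mean of Cdh1 was 39.8-fold the IgG limit of 3 counts (19.9-fold against 6 counts). The fitted log2 fold change over input was 3.25 (SE 0.35). The ratio of acRIP to input was the smallest of the 5, with 90 counts in the lowest acRIP library against 34 in the highest input library.

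**Figure D1:**
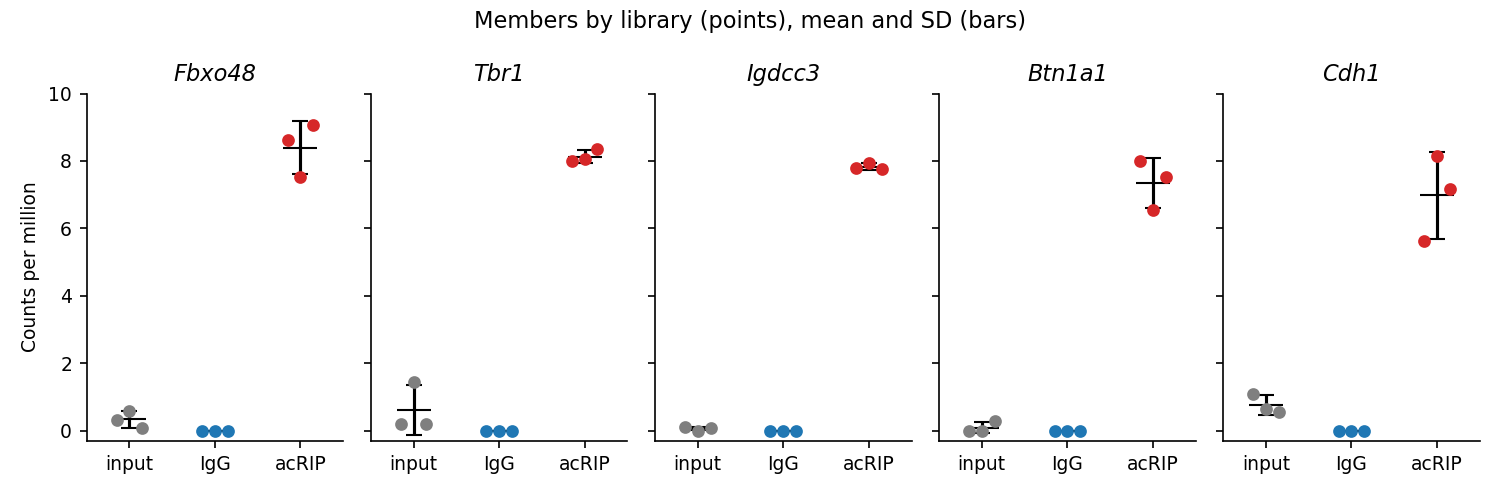
CPM (vertical axis) of the 5 genes in each library of input, IgG and acRIP, with points for libraries and bars for the mean and SD (n = 3). All 15 IgG values lie at 0, input values stay low with 1 raised Tbr1 library, and acRIP values form a separate group in every gene.

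In all 5 genes each acRIP library exceeded each input library, a pattern found in 20.8% of the 35699 genes with a count. Of these genes, 1.47% had 0 counts in every IgG library and at least 1 in every acRIP library. Of the 22510 genes tested with edgeR, 11.5% were called higher in acRIP than in IgG, 17.7% higher than in input, and 7.88% higher than in both. The 5 genes carry these calls too, but as their counts chose them nothing is read from that number. In IgG against input, 3 of the 5 were called lower, where 7.22% of tested genes were, and that comparison also holds the IgG zeros that chose them.

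Compared per length, the acRIP levels ran from Fbxo48 at 3.74 ± 0.355 FPKM (SD, n = 3) through Igdcc3 at 2.17 ± 0.0274 and Btn1a1 at 1.78 ± 0.178 to Cdh1 at 1.52 ± 0.280 and Tbr1 at 1.48 ± 0.0351. FPKM is CPM divided by the length of the merged exons in kilobases. The 3 libraries of Fbxo48 and those of Igdcc3 each stood clear of the genes below them. The Cdh1 libraries, from 1.23 to 1.78 FPKM, overlapped those of both Btn1a1 and Tbr1, so these neighbours did not differ beyond their spread. These levels placed the 5 genes between the 62.0 and 73.7 percentile of acRIP FPKM over the 35699 genes with a count in any library. Only 22206 to 22402 genes had a count in a given acRIP library, so genes at 0 there raise these percentiles. In input the 5 genes ranged from 0.0172 FPKM for Igdcc3 and 0.0219 for Btn1a1 through 0.111 for Tbr1 and 0.148 for Fbxo48 to 0.165 for Cdh1, between the 11.2 and 33.6 percentile. The 5 transcripts were thus scarce in testis RNA, and their higher place in acRIP is a value that chose them.

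The spread of the acRIP values is given as a description only, since high counts in every acRIP library chose the 5 genes. The coefficients of variation in acRIP CPM were 1.26% for Igdcc3, 2.37% for Tbr1, 9.50% for Fbxo48, 9.998% for Btn1a1 and 18.3% for Cdh1. The 3606 genes with a mean of 80 to 200 counts in acRIP had a median of 14.3%, with quartiles of 9.06% and 20.5%. Igdcc3 and Tbr1 lay below the lower quartile, and the other 3 lay between the quartiles. Of the 27 values above 0 in the 5 genes, 24 were even (88.9%), as were 76.6% of all counts from 1 to 200.

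How often genes of this size were missing from another library was counted over all genes. Of 3554 to 3617 genes with 80 to 200 counts in a given acRIP library, none was at 0 in another acRIP library, while 35 to 49 were at 0 in at least 1 IgG library and 13 to 14 of them in every IgG library, or 0.359% to 0.394%. The reverse was more frequent. Of 3554 to 3589 genes with 80 to 200 counts in a given IgG library, 60 to 120 were at 0 in at least 1 acRIP library and 24 to 57 of them in every acRIP library, or 0.669% to 1.59%, and none was at 0 in another IgG library. Genes of this level were thus never missing from a library of the same group, and were missing from libraries of the other group in both directions.

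With at least 40 counts in every library of a group, 38 genes were present in acRIP and at 0 in IgG, 125 were present in IgG and at 0 in acRIP, and 279 were present in input and at 0 in acRIP. With at least 90 counts, the numbers were 8, 15 and 51. Of the 38 genes, 23 were protein-coding, 6 were loci to be experimentally checked, 4 were lincRNAs, 4 were processed pseudogenes and 1 was a processed transcript. Fbxo48, Tbr1, Igdcc3, Btn1a1 and Cdh1 all belong to the protein-coding genes of this set.

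**Figure D2:**
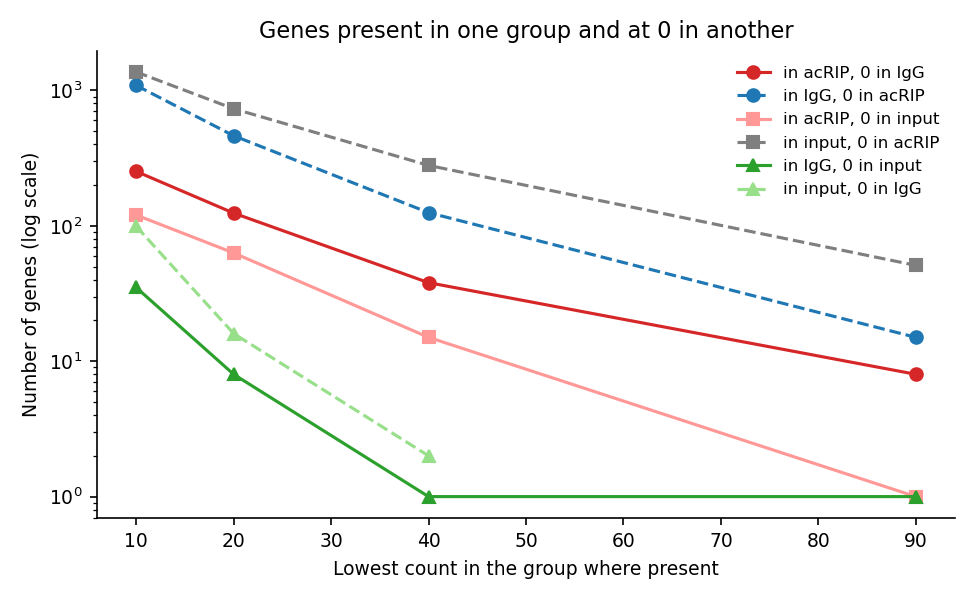
Number of genes (log axis) that had at least the count on the horizontal axis in every library of a group and 0 in every library of another, with 1 line per pair of groups. Genes in acRIP and at 0 in IgG fall from 252 at 10 counts to 8 at 90, and genes in IgG and at 0 in acRIP from 1087 to 15.

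Ordered by their lowest acRIP count among the genes at 0 in IgG, Fbxo48 came first with 138, followed by Tbr1 with 128, Igdcc3 with 125 and Btn1a1 with 122. Cdh1 shared its lowest value of 90 with the pseudogene Wdr46-ps, and between them and Btn1a1 stood Tns4, a focal adhesion protein, with 104 and Dntt, the terminal transferase of developing lymphocytes, with 102. The 5 genes were therefore not all of the genes of this kind. A total of 8 genes reached the lowest count of Cdh1, or 5 without acRIP replicate 1, in which Cdh1 had its 90 counts. Just below followed Gm4846 with 79, Ube2ql1 and Gm47087 with 78, Rbm41 with 76, Otoa with 74, Gm18484 with 68 and Adamts15 with 64. Ube2ql1, a ubiquitin-conjugating enzyme family member, had 80, 90 and 78 counts in acRIP and 0 in all 6 other libraries. When the genes were ordered by FPKM in place of counts, 127 reached the lowest of the 5.

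**Figure D3:**
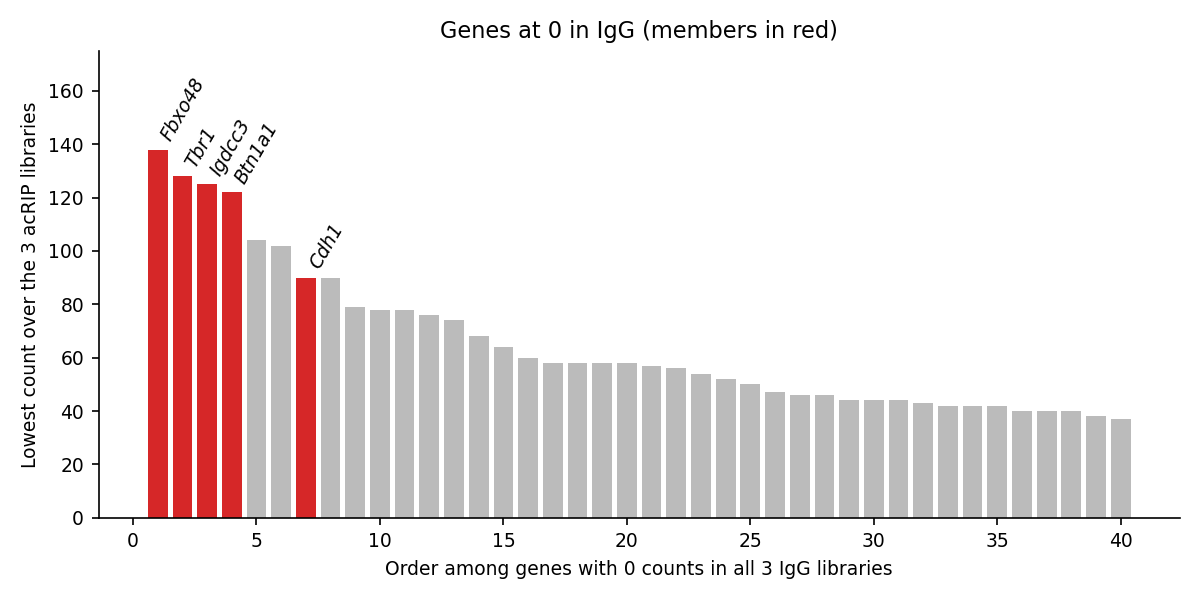
Lowest count over the 3 acRIP libraries (vertical axis) of the 40 genes highest in that order among genes with 0 counts in all 3 IgG libraries. The bars of the 5 genes, in red, take the first 4 places and the seventh, at 138, 128, 125, 122 and 90 counts.

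The genes with the most similar profile were found by the Euclidean distance of log2(CPM + 1) over the 9 libraries, which is a description over libraries that share their groups. For Fbxo48 they were the mucin Muc6 (distance 0.749), with 162, 162 and 190 counts in acRIP and 0, 2 and 0 in IgG, and Tns4 (0.758). For Tbr1 they were Tns4 (0.921) and Dntt (1.14). Igdcc3 and Btn1a1 had the same nearest genes, Neurl1b at 0.599 and 0.602 and Gm43175 at 0.774 and 0.726. Neurl1b, a ubiquitin ligase of the Notch pathway, had 110, 112 and 112 counts in acRIP and 0, 4 and 0 in IgG. For Cdh1 they were the antisense gene Gm17435 (0.697), with 70, 152 and 138 counts in acRIP, and Dntt (0.715).

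No gene annotated in GENCODE vM21 overlapped any of the 5 genes, whereas the annotation used for the deposited counting is not given in the sources used here. None of the genes next to the 5 genes was at 0 in IgG and present in acRIP. Eldr ends 92 bases from the start of Fbxo48 on the opposite strand and had 45, 29 and 10 counts in input, 32, 24 and 30 in IgG and 20, 20 and 26 in acRIP. Plek, on the other side, had 20, 6 and 26 counts in IgG and 0, 0 and 6 in acRIP. Psmd14, a proteasome subunit 2553 bases from Tbr1, differed by -0.31 from IgG and by -0.08 from input on the log2 scale, and Gm13555 on the other side had no count. At Btn1a1, the lincRNA Gm46404 was called higher than input (1.95 on the log2 scale, edgeR adjusted p = 1.6e-09) and did not pass the 2-fold limit over IgG (0.78). Its other neighbour Btn2a2, a further butyrophilin, had 8, 10 and 26 counts in input and 0 in all IgG and acRIP libraries.

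The neighbours of Cdh1 went the other way. The lincRNA 1110028F18Rik had 38, 24 and 16 counts in input, 13, 50 and 24 in IgG and 0 in each acRIP library. Tango6 fell by 1.77 on the log2 scale from IgG to acRIP (edgeR adjusted p = 1.1e-10). At Igdcc3, Parp16 differed by 0.81 from IgG and by 0.32 from input. Igdcc4, which lies 3248 bases from Igdcc3 and belongs to the same family, was the only neighbour of the 5 genes called above IgG and input alike.

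The related families were described next, from lists of 114 genes without the 5 genes themselves, of which 90 were tested. Among these, 8 were called higher in acRIP than in both IgG and input (8.89%, against 7.88% of all tested genes) and 20 lower than in both (22.2%, against 17.0%). Fits of only the 6 libraries compared called 12 related genes and 2376 genes in all lower than both, in place of 20 and 3829. The calls lost were those of Fbxo41, Tbx4, Tbx18, Unc5d, Cdh4, Cdh6, Cdh15 and Cdh22, all at 0 to 4 counts in every acRIP library. On the log2 scale the median difference of acRIP was -0.20 from IgG and -0.04 from input, beside -0.09 and -0.10 over all tested genes. None of the 114 had 0 counts in every IgG library and a count in every acRIP library. The reverse, 0 counts in every acRIP library and a count in every IgG library, was seen in 8 of the 106 with a count, of which 4 were cadherins, and in 9.15% of all genes with a count.

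The F-box genes hold the relatives of Fbxo48, and with them the core of the SCF ligase was listed. Of 33 tested F-box only genes, 0 were called above and 6 (18.2%) below IgG and input alike, where 7.88% and 17.0% of all tested genes were. Their median log2 differences were -0.27 from IgG and -0.09 from input. Against IgG alone 1 rose and 8 fell, where 11.5% of all tested genes rose and 20.9% fell. The genes that fell against both were Fbxo5, an inhibitor of the anaphase-promoting complex, Fbxo16, Fbxo17, Fbxo34, Fbxo41 and Fbxo42. Fbxo42 had 204, 334 and 328 counts in IgG and 62, 36 and 80 in acRIP and fell by 2.19 on the log2 scale. None of the 4 SCF core genes was called against both groups. Fbxo48 was not tested against these relatives.

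For Tbr1, 1 of 12 tested T-box genes (8.33%) was above and 2 (16.7%) were below IgG and input alike. Over all tested genes the shares were 7.88% and 17.0%. Both lower calls, of Tbx4 and Tbx18, were lost in fits of only the 6 libraries compared. Tbx19 rose by 1.76 over IgG and 1.28 over input on the log2 scale, and Tbx4 and Tbx18 were at 0 in all acRIP libraries. Eomes, the relative of Tbr1 in early cortical progenitors, had 0, 4 and 2 counts in input, 12, 12 and 6 in IgG and 22, 13 and 10 in acRIP. It was called higher than input (log2 fold change 3.40, edgeR adjusted p = 0.000596), but over IgG the value was 0.64 (adjusted p = 0.435). Tbx21, the third gene of that subfamily, had 9, 0 and 6 counts in input and 0 in all other libraries. Neither gene was at 0 in IgG and present in acRIP as Tbr1 was.

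Among 11 tested DCC and neogenin receptors and ligands, listed beside Igdcc3, 3 were above and 3 below IgG and input alike. Each was 27.3% of those tested, beside 7.88% above and 17.0% below over all tested genes. Igdcc4 had 138, 71 and 96 counts in input, 77, 73 and 50 in IgG and 194, 230 and 236 in acRIP, where each library stood above all those of the other groups. It rose by 1.77 over IgG (SE 0.22, edgeR adjusted p = 3.2e-08) and 1.76 over input (SE 0.21, adjusted p = 8.0e-09) on the log2 scale. The netrin ligand Ntn3 rose by 1.78 and 4.85, and the netrin receptor Unc5a rose by 1.62 and 2.58, over IgG and input respectively. The genes that fell were Ntn5, Rgma, a neogenin ligand, and Unc5d, which was at 0 in all acRIP libraries. Prtg, the other close relative of Igdcc3, had 20, 44 and 42 counts in IgG and 7, 2 and 10 in acRIP, a log2 difference of -2.35 from IgG and 0.05 from input. Receptors and ligands of this list therefore moved in both directions, and Igdcc4 differed from Igdcc3 in having counts in all IgG libraries.

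Of the butyrophilins and milk fat globule genes listed with Btn1a1, 6 of 15 had enough counts to be tested. Xdh, xanthine dehydrogenase, which pairs with butyrophilin in the milk fat globule membrane, had 78, 60 and 48 counts in input, 50, 36 and 24 in IgG and 136, 132 and 132 in acRIP. It rose by 1.90 over IgG and 1.74 over input on the log2 scale (edgeR adjusted p = 9.0e-07 and 1.0e-06). The other 5 tested genes were not called against both groups, among them Plin2 and Mfge8 of the lipid droplet and milk fat globule. Of the milk protein genes Csn1s1, Csn2, Csn3, Wap and Lalba, none had a count in any IgG or acRIP library. In input, Wap had 6, 2 and 2 counts and Csn2 had 2, 0 and 0. The transcripts of these secreted milk proteins were thus absent from IgG and acRIP, while Xdh, Plin2 and Mfge8 had counts in every library.

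The cadherins are the relatives of Cdh1. Of 16 tested, 2 (12.5%) were above and 9 (56.25%) below IgG and input alike, against 7.88% and 17.0% of all tested genes. Median log2 differences were -2.19 from IgG and -2.27 from input. They were -1.04 and -1.93 with the 4 genes at 0 in acRIP set to their bounds. Cdh18 had 89, 89 and 118 counts in input, 64, 54 and 30 in IgG and 0 in each acRIP library, at least 16.8-fold lower than in IgG and at least 23.1-fold lower than in input. Cdh13 (T-cadherin) fell by 3.77 and Cdh11 (OB-cadherin) by 1.41 from IgG to acRIP on the log2 scale. Cdh4, Cdh6, Cdh9, Cdh15, Cdh20 and Cdh22 completed the group that fell. Cdh6 had only 2, 2 and 2 counts in IgG, under the limit of 3, so that no bound against IgG can be given for it. In fits of only the 6 libraries compared, 5 of the 9 cadherins were called.

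The cadherins that rose were Cdh3 (P-cadherin) and Cdh5 (VE-cadherin of the endothelium). Cdh3 had 91, 70 and 62 counts in input, 18, 30 and 50 in IgG and 128, 134 and 99 in acRIP, and it rose by 1.96 over IgG and 1.33 over input on the log2 scale. Cdh5 had 42, 24 and 24 counts in input, 4, 10 and 10 in IgG and 96, 90 and 126 in acRIP, and it rose by 3.77 and 2.44. Cdh2 (N-cadherin) fell against input only, with log2 differences of -0.67 from IgG and -1.38 from input. Of 8 catenins, which link cadherins to the cytoskeleton, Ctnnd2 was higher than in both groups (1.13 and 1.43), while Ctnnb1 (-0.08 and 1.26) and Ctnnd1 (-0.04 and 1.47) were higher than input only. Ctnna1 fell against input only, with log2 differences of -0.81 from IgG and -1.02 from input.

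**Figure D4:**
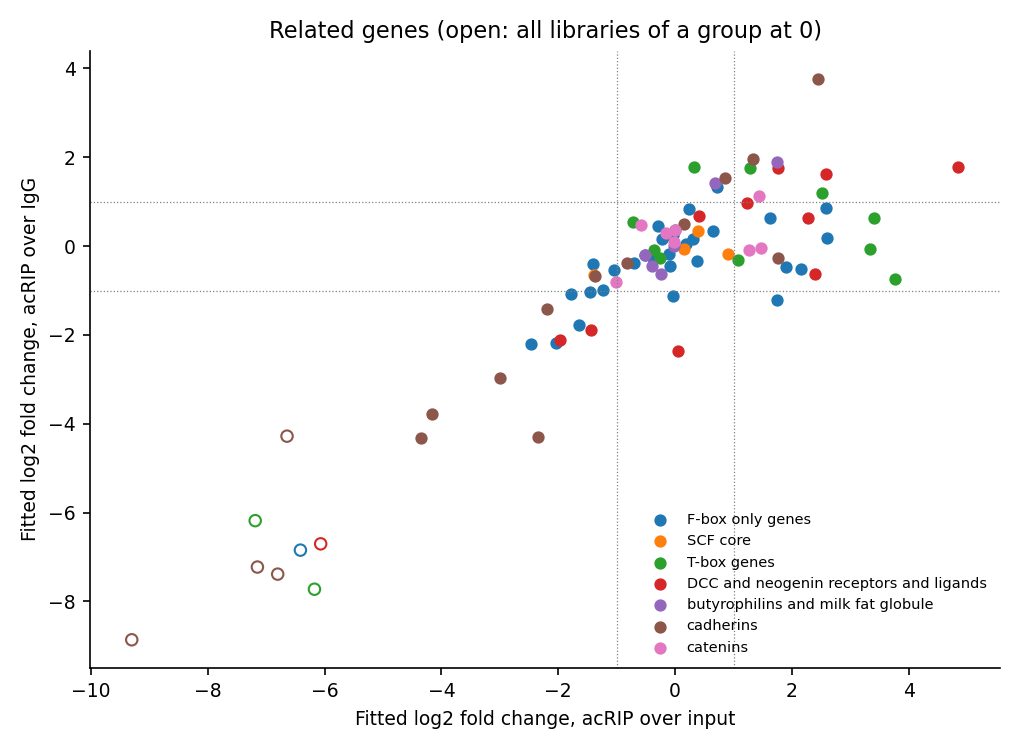
Fitted log2 fold change of acRIP over IgG (vertical axis) against that over input (horizontal axis) of the 90 tested related genes, coloured by list, with dotted lines at 2-fold and open symbols for genes with all libraries of a group at 0, whose position is no estimate. The 8 genes higher than both groups lie at the upper right, and 9 of 16 cadherins lie at the lower left.

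Markers of the cells in which these genes are known were read beside them. The 8 epithelial markers summed to 73.1 to 77.6 CPM in input, 95.6 to 100.4 in IgG and 92.2 to 106.7 in acRIP, and Krt18, Krt19, Cldn4 and Cldn7 were at 0 in every acRIP library. In IgG, Cldn4 was also at 0 and Krt19 had 0, 0 and 1 counts, while Krt18 had 4, 12 and 4 and Cldn7 had 24, 28 and 14. Of the 5 epithelial markers that were tested, Esrp1 rose and Cldn7 fell. The 4 spermatogonial markers summed to 40.3 to 44.3 CPM in input, 75.7 to 91.0 in IgG and 63.9 to 71.9 in acRIP. Zbtb16 had 145, 148 and 184 counts in acRIP and 20, 50 and 46 in IgG, whereas Gfra1 had 46, 46 and 49 in acRIP and 166, 195 and 279 in IgG. Markers of 1 cell type thus did not move as a block with Cdh1.

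Of the markers of cortical neurons, read beside Tbr1, Neurod2, Neurod6, Bcl11b and Fezf2 were at 0 in every acRIP library. They were scarce in the other groups too. Neurod2 and Neurod6 were at 0 in input and had 0, 0 and 2 and 0, 2 and 0 counts in IgG. Bcl11b had 4, 0 and 2 counts in input and 1, 0 and 0 in IgG, and Fezf2 had 1, 1 and 4 and 2, 4 and 6. The list summed to 23.5 to 25.3 CPM in input, 25.7 to 30.7 in IgG and 27.3 to 33.7 in acRIP, where it came from Slc17a7 and Reln alone. Of the epididymal markers, which would show tissue attached to the testis, Lcn5 and Lcn8 were at 0 in IgG and acRIP, Rnase10 rose and Crisp1 fell. In such bulk RNA, fewer cells of a type and less RNA per cell cannot be told apart, and the part of cell composition in the values of the 5 genes was not tested beyond these counts.

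The base composition of the 5 genes was read from their merged exons, which the selection did not use. The C share was 18.7% in Fbxo48, 24.3% in Btn1a1, 25.6% in Cdh1, 27.3% in Tbr1 and 31.0% in Igdcc3, beside a median of 23.7% over 22490 tested genes with sequence. Fbxo48 lay at the 6.67 percentile and Igdcc3 at the 96.9 percentile, so the 5 genes spanned nearly the whole range of tested genes. The medians were 23.95% over the 1774 genes that acRIP held above input and IgG alike and 23.6% over the 3829 lower genes. GC content likewise ran from 41.3% in Fbxo48 to 59.2% in Igdcc3 around a median of 48.3%.

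Matches to CNCAGNNC with any base at N, a looser pattern than the motif of the study, searched on the transcript strand with overlapping matches counted, numbered 1 in Fbxo48, 5 in Btn1a1, 8 in Cdh1, 10 in Igdcc3 and 15 in Tbr1. Per kilobase of merged exons this was 0.445, 1.21, 1.75, 2.77 and 2.73, beside a median of 1.58 over tested genes. Between 94.7% and 99.9% of tested genes within 10% of the length of each of the 5 held at least 1 match, with a median of 4 to 9 matches, so that a match alone sets none of the 5 apart. Tbr1 and Igdcc3 had more matches than genes of their length (medians of 9 and 6), Cdh1 had as many (8), and Btn1a1 (7) and Fbxo48 (4) had fewer. In the longest coding transcript, 9 matches of Tbr1, 7 of Igdcc3, 5 of Cdh1 and 4 of Btn1a1 lay in the coding sequence, and 4, 3, 2 and 1 in the 3′ UTR. Fbxo48, which had the highest acRIP level, had no match in its coding sequence or 3′ UTR. With the variable positions limited as stated above, the matches numbered 1 in Fbxo48, 3 in Btn1a1, 3 in Cdh1, 6 in Igdcc3 and 4 in Tbr1. Per kilobase this was 0.445, 0.728, 0.656, 1.66 and 0.729, beside a median of 0.596 over tested genes, and the median over genes of the same length was 1, 3, 3, 2 and 4. Under these limits Igdcc3 had more matches than genes of its length, at the 90.4 percentile per kilobase, and the other 4 genes had as many.

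**Figure D5:**
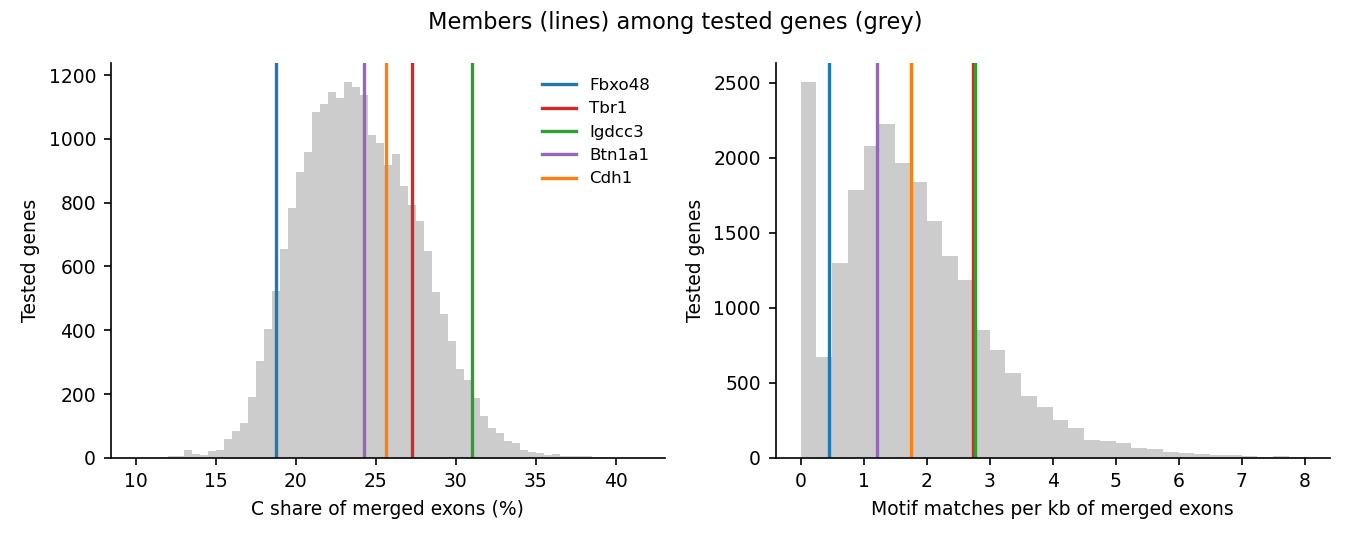
C share of merged exons in percent (left) and matches to CNCAGNNC with any base at N per kilobase (right) over tested genes (grey, number of genes on the vertical axis; the few genes beyond the axes are not drawn), with the 5 genes as vertical lines. Fbxo48 lies at the low end of both, at 18.7% and 0.445, and Igdcc3 at the high end of the C share, at 31.0%.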

How the data were processed

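The authors deposited counts of uniquely mapped reads per gene and library, without normalization, in 1 table with the length of each gene. The submitters' processing notes name Trim Galore 0.6.7, STAR 2.7.10a and featureCounts 2.0.2, with mm10 as the genome build. Not given in the sources used here are the gene annotation of that counting, its use of strand, and its unit, read or fragment. Reads with several matches were left out, which lowers genes with near-identical copies. The labels gave groups and replicate numbers, and 0 columns of values of single libraries were left unused.

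Symbols were matched to identifiers without version in GENCODE vM21 (55141 of 55401). Counts were tested with edgeR 4.0.16 in R 4.3.3 (filterByExpr, TMM, quasi-likelihood test, 1 mean per group over all 9 libraries). The SE given is the size of the fitted log2 fold change over the square root of the F value of its quasi-likelihood test. A gene was called at a Benjamini-Hochberg adjusted p under 0.05 over all 22510 tested genes and over 2-fold. A script checked on simulated counts ran the same test. CPM and FPKM used the total counts and the deposited lengths, with a pseudocount of 1 only for distances between profiles. Folds over the IgG limit divide the mean acRIP CPM by the mean of 3 counts per IgG library. Ratios of summed counts have 95% exact intervals. The 5 genes, the lists of related and marker genes and the tests were chosen with earlier results of these data known.

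Named besides the 5 genes were the 10 highest other genes at 0 in IgG with those next to the lowest of the 5 in that order, the 2 nearest profiles per gene, the neighbouring genes, related genes called against both groups, and Igdcc4, Prtg, Eomes, Tbx21, Btn2a2, Cdh2, Cdh3, Ctnnb1 and Ctnnd1. Marker genes, Plin2 and Mfge8 were named after their values were seen, and 1 marker gene is not reported here. Sequences were read from the GRCm38 (mm10) genome. Alternatives were DESeq2 1.42.0, upper quartile normalization, other filters on low counts, halved counts, a fit of each pair of groups by itself, a replicate block, a floor of 6 counts, TMM effective library sizes, FPKM in the order of genes, the longest transcript, the motif with its variable positions limited as in the study, and leaving out each library. Python 3.11.15 with scipy 1.17.1 and pandas 2.3.3 was used for the rest.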

Additional observations from a re-analysis of the deposited data

How the results depend on the processing

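The acRIP level of each of the 5 genes over input kept its direction under every alternative run. This direction could hardly change, as high acRIP counts chose the genes and no input library held more than 34 counts of any. With DESeq2 the log2 fold changes were 4.76 for Fbxo48, 3.85 for Tbr1, 6.99 for Igdcc3, 6.47 for Btn1a1 and 3.28 for Cdh1. Leaving out 1 library gave 4.32 to 5.29, 3.39 to 5.47, 6.37 to 7.32, 5.78 to 10.22 and 3.07 to 3.64, where the 10.22 of Btn1a1, without input replicate 3, is set against input libraries all at 0 and is no bound. Against IgG, a floor of 6 counts lowered the folds over the IgG limit to 23.9, 23.2, 22.3, 21.0 and 19.9, by its construction. TMM effective library sizes gave 48.0 for Tbr1 and 46.3 for Igdcc3, and leaving out 1 library gave 45.9 to 52.3 for Fbxo48, 44.4 to 50.6 for Tbr1, 42.8 to 48.8 for Igdcc3, 40.1 to 45.8 for Btn1a1 and 36.4 to 43.7 for Cdh1. The 8 genes at 0 in IgG that reached the lowest acRIP count of the 5 became 127 by FPKM, 11 where up to 3 counts were allowed in IgG, and 5 to 11 without 1 library. Fits of only the 6 libraries compared called 2376 genes lower than both groups in place of 3829, and 12 related genes in place of 20. The cause was not tested. The C share of Tbr1 was 28.6% in its longest transcript. Limiting the variable positions of the motif, an alternative chosen after seeing the data, lowered the matches per kilobase of Tbr1 from 2.73 to 0.729 and left Fbxo48 at 0.445. Deviations of same-numbered libraries from their group means correlated at -0.0066 to 0.0352, and those of differently numbered libraries at -0.0295 to 0.0271. Such small values cannot show whether the numbers pair the libraries, whose origin the labels do not give. With the replicate number as a block the counts higher and lower than both groups were 1729 and 3751, with 8 and 19 related genes, and the fold changes of the 5 genes over input were 4.75, 4.13, 6.86, 6.54 and 3.27. Depth limits the input values of Igdcc3 and Btn1a1 most, which rest on 5 and 6 counts.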
